A study of Mus musculus with 6 samples.

Results

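The genes described here are 10 DNA replication and repair enzymes whose proteins carry an iron-sulfur cluster, a small group of iron and sulfur atoms held by cysteines. They were chosen by gene symbol, as Pold1, Pole, Prim2, Dna2, Ercc2, Brip1, Rtel1, Ddx11, Nthl1 and Mutyh, and are 10 of the 36652 genes in the deposited table. Testes of 8-week-old mice were profiled by RNA sequencing, with 3 libraries labelled Ccdc117ko and 3 labelled WT. Ccdc117 encodes a coiled-coil protein; the labels give neither the allele nor the strain. They do not say that each replicate is its own animal, so the tests measure the spread between these samples, which may be technical. The title of the series ties loss of Ccdc117 to raised androgen and to sperm formation.

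Iron-sulfur clusters are built in mitochondria and the cytosol, and a targeting complex in the cytosol that includes MMS19 hands them to the nuclear enzymes. In the replicative polymerases and the primase the cluster lies in the subunit that carries or regulates catalysis, in one family of helicases it lies inside the motor domain, and in one family of DNA glycosylases it lies beside the DNA-binding surface. In the testis these enzymes serve the dividing spermatogonia, the last round of replication before meiosis, and the repair of breaks and damaged bases in germ cells. RNA levels do not show whether a cluster was inserted into the protein.

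The whole reads recovered from the deposited values ranged from 35791616 to 43461692 per library. Ccdc117 had normalized counts (reads scaled to a common library size) of 3478, 3772 and 3908 in the libraries labelled Ccdc117ko, against 3657, 3826 and 3931 in the WT libraries. These ranges overlapped (log2 change -0.03, limma adjusted p = 0.763), so the total over the gene does not check the labels; Ccdc117ko hereafter stands for the libraries labelled so. Germ cell and somatic markers were present in every library. The summed level of 10 Sertoli cell markers was 47895 to 49835 in Ccdc117ko, against 53031 to 54377 in WT, and that of 10 round spermatid markers was 73097 to 77321, against 58363 to 63773. Clu made up most of the Sertoli sum, at 40246 ± 818 in Ccdc117ko and 43791 ± 593 in WT (SD, n = 3 each).

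All 10 genes passed the filter on low values, a mean of at least 0.5 normalized counts, and 1 of them changed. Ddx11 fell, none rose, and 9 were not called at a limma adjusted p under 0.05. For scale, 6.80% of the 32783 genes tested were called, 3.10% lower and 3.70% higher in Ccdc117ko. The values of the genotypes did not overlap for 3 of the 10, with Ccdc117ko lower for Ddx11 and Rtel1 and higher for Pold1. Over all tested genes 27.0% showed no overlap, 13.3% with Ccdc117ko lower and 13.7% with Ccdc117ko higher. The median log2 change of the 10 was -0.03, with 7 below 0, beside a median of 0.00 and 49.8% below 0 over all genes tested. The shares of the 10 called and without overlap lay close to those of all genes tested.

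**Figure D1:**
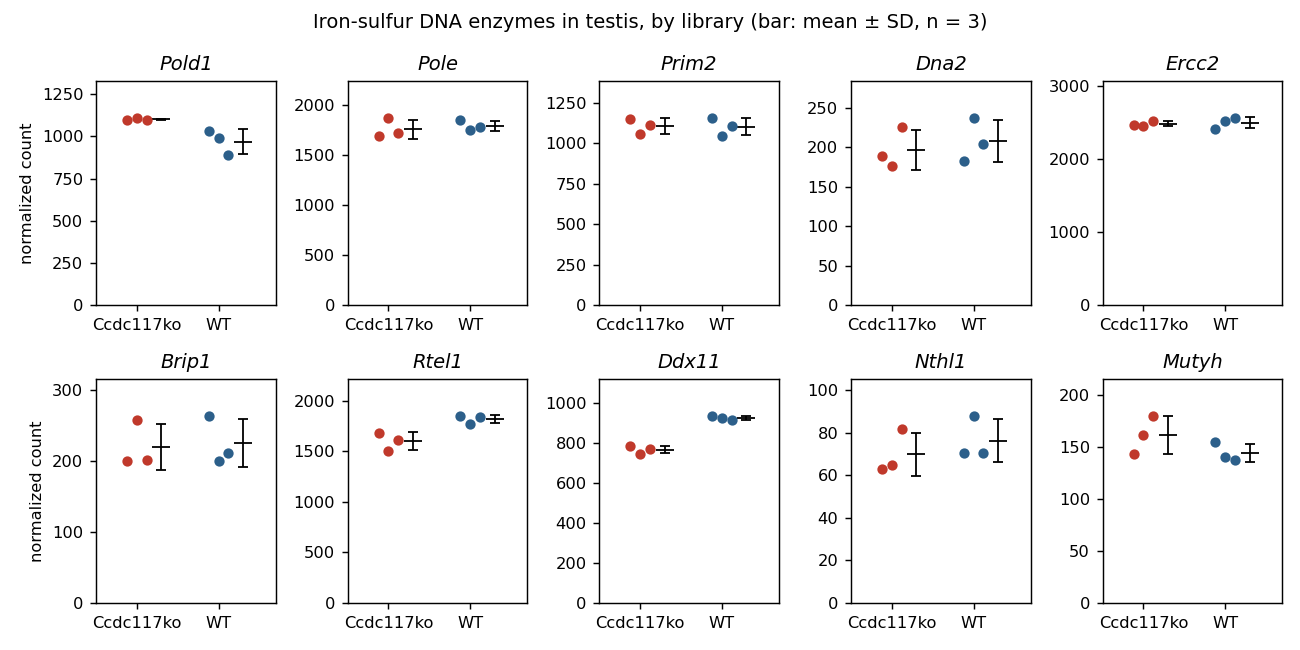
Normalized count of each of the 10 genes in each library, from 0 upward on the vertical axis, with Ccdc117ko (red) left of WT (blue) and the mean ± SD of 3 libraries as a black bar. Ddx11 and Rtel1 lie lower and Pold1 higher in every Ccdc117ko library than in any WT library, and the points of the other 7 genes overlap.

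Ddx11 encodes a helicase that unwinds DNA at replication forks and supports cohesion between sister chromatids. The gene (ENSMUSG00000035842) lies on the plus strand of chromosome 17, from 66123520 to 66152174 in mm10. It had 786, 749 and 769.9 normalized counts in Ccdc117ko libraries, against 937, 928 and 916 in WT libraries. All 3 Ccdc117ko values lay below the lowest WT value. The SD was 2.45% of the mean in Ccdc117ko and 1.12% in WT. Both lie below the 3.42% expected from counting reads alone, so these libraries may understate the spread between samples. The means were 768 ± 18.8 in Ccdc117ko and 927 ± 10.4 in WT (SD, n = 3 each), a fold of 0.829. The log2 change was -0.27 with a standard error of 0.0485 and a 95% interval of -0.38 to -0.16 (limma adjusted p = 0.0229). The authors' deposited table gives Ddx11 an FDR of 0.00182.

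The size of the Ddx11 difference was steadier than its call. With 1 library left out, its log2 change was between -0.29 and -0.25, and the call held without WT replicate 1 (limma adjusted p = 0.0472). It was lost when a Ccdc117ko library was left out (limma adjusted p = 0.0695, 0.11 and 0.0845 for replicates 1, 2 and 3), and likewise for WT replicates 2 and 3 (limma adjusted p = 0.0725 and 0.0928). The fits that lost it called 6 to 22 of all genes tested, against 2228 with all 6 libraries. With the filter at a mean of 10, a setting added for these fits after the data were seen, limma adjusted p was 0.0181 to 0.0538 whichever library was left out, and the call was lost only without Ccdc117ko replicate 2. After a smooth trend with transcript length and GC content was removed from each library, the change was -0.17 (limma adjusted p = 0.0863). Among 17548 other genes averaging 50 or more, the nearest in pattern over the 6 libraries were Calu and Sgk3. They differed from Ddx11 by a root mean square of 0.022 and 0.0238 on the centred log2 scale.

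Rtel1, a helicase that takes apart loops at chromosome ends and recombination intermediates, lay lower without passing the test. The gene (ENSMUSG00000038685) lies on the plus strand of chromosome 2, from 181319739 to 181356616. It had 1682, 1505 and 1614 normalized counts in Ccdc117ko, against 1849, 1775 and 1844 in WT. No Ccdc117ko value reached the lowest WT value. The means were 1600.4 ± 89.3 in Ccdc117ko and 1823 ± 41.2 in WT (SD, n = 3 each), with a log2 change of -0.19, a standard error of 0.0524 and a 95% interval of -0.31 to -0.07 (limma adjusted p = 0.0737). The authors' deposited table gives Rtel1 an FDR of 0.0143. When the filter was raised to a mean of 10, 16.6% of 22878 genes were called, 8.25% lower and 8.35% higher, and limma called Rtel1 lower (adjusted p = 0.0391). With length and GC corrected for, its log2 change was -0.09 (limma adjusted p = 0.339).

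Brip1 and Ercc2, the other helicases of the family, overlapped between genotypes. Brip1, which binds BRCA1 and acts in repair of DNA crosslinks, had 199, 257 and 202 normalized counts in Ccdc117ko, against 263, 200.04 and 210.3 in WT. In each genotype 1 library stood above the other 2. Its log2 change was -0.03 with a 95% interval of -0.36 to 0.30 (limma adjusted p = 0.934), so a change of that size in either direction lies within the error. Ercc2, the helicase subunit of TFIIH that opens DNA for nucleotide excision repair, had 2467, 2449 and 2513 in Ccdc117ko, against 2407, 2512 and 2552 in WT. The Ccdc117ko values lay inside the WT range, and the log2 change was -0.01 with an interval of -0.10 to 0.09 (limma adjusted p = 0.951). On the opposite strand, the antisense gene Gm26852 overlaps 24.6% of the exonic bases of Ercc2 and Klc3 overlaps 17.8%. The use of strand in counting is not given in the sources used here, so part of the Ercc2 reads could belong to either. Gm26852 had 0, 21.3 and 25.2 normalized counts in Ccdc117ko, against 16.3, 26.01 and 25.6 in WT, with overlapping ranges. Klc3 itself had 1763 ± 189 normalized counts in Ccdc117ko and 1545 ± 34.0 in WT (SD, n = 3 each), with a log2 change of 0.19 (limma adjusted p = 0.193).

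Among the replicative enzymes, Pold1, the catalytic subunit of DNA polymerase delta, lay higher without passing the test. The gene (ENSMUSG00000038644) is transcribed from the minus strand of chromosome 7, between bases 44532746 and 44548849. It had 1099, 1107 and 1099 normalized counts in Ccdc117ko, against 1029.9, 988 and 889 in WT. The Ccdc117ko libraries lay close together, all above the highest WT library. Their SD was 0.379% of the mean, below the 3.10% expected from counting reads alone, so they may understate the spread between samples. The means were 1102 ± 4.18 in Ccdc117ko and 969 ± 72.1 in WT (SD, n = 3 each), and the log2 change was 0.19 with a 95% interval of 0.04 to 0.33 (limma adjusted p = 0.118). The authors' deposited table gives Pold1 an FDR of 0.0588. After the length and GC correction its log2 change was 0.27 and it passed the test (limma adjusted p = 0.0493). Without WT replicate 3 the change was 0.13 (limma adjusted p = 0.239).

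The promoters of Pold1 and Rtel1 are shown because these genes lay on opposite sides of 0 without overlap between genotypes; Ddx11 has no entry in the table used. Each sequence is the RefSeq window on GRCm38.p6 from 250 bases before to 50 bases after the RefSeq start, read along the strand of the gene. For both genes this start differs from the end of the gene coordinates given above, and distances below are counted from it. Pold1 is at chr7:44548766-44549065 on the minus strand, and Rtel1 is at chr2:181319474-181319773 on the plus strand. Capitals mark matches, on either strand, to the GC box GGGCGG, the E2F motif TTTCCCGC or TTTGGCGC, and the ETS motif CCGGAAG.
Pold1: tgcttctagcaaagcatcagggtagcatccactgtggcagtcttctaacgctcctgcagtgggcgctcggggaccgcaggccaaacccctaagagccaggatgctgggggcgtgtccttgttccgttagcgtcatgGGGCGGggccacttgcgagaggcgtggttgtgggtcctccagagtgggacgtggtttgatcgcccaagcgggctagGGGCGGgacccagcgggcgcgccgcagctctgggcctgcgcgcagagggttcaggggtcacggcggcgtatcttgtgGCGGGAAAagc
Rtel1: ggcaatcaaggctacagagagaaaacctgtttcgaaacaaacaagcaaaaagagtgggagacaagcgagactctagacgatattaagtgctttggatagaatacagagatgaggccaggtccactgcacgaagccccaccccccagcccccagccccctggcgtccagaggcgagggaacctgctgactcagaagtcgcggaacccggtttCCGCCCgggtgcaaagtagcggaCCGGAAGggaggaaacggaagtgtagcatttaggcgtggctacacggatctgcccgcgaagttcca
Pold1 holds 2 GC boxes, 114 and 38 bases before the start, and 1 match to the first E2F form (the letters GCGGGAAA on this strand) at base 40 after it. Rtel1 holds 1 GC box 39 bases before the start and 1 ETS match 16 bases before it. Over all 32851 windows of the table the GC box was found in 35.7%, the first E2F form in 1.07%, the second in 0.514% and the ETS motif in 8.86%. Windows were listed for 7 of the 10 genes, 8 windows in all, with a GC box in 6, an ETS match in 3 (Brip1, Rtel1 and Nthl1) and the first E2F form in 1. None of the 8 held the second E2F form or the cyclic AMP response element TGACGTCA, which 1.79% of all windows hold, and no matches overlapped.

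Pole and Prim2 overlapped between genotypes. Pole, the catalytic subunit of DNA polymerase epsilon, had 1689, 1867 and 1723 normalized counts in Ccdc117ko, against 1846, 1751 and 1779 in WT. The highest and the lowest of the 6 libraries were both Ccdc117ko, and the log2 change was -0.03 with a 95% interval of -0.15 to 0.09 (limma adjusted p = 0.815). Prim2, the large subunit of primase that helps to lay down RNA primers, had 1151, 1055 and 1113 in Ccdc117ko, against 1153, 1047 and 1107 in WT. Its log2 change was 0.01 with an interval of -0.13 to 0.14 (limma adjusted p = 0.986). Dna2, a nuclease and helicase that trims flaps and resects broken ends, had 189, 177 and 226 in Ccdc117ko, against 183, 237 and 204 in WT. Its groups overlapped, with a log2 change of -0.08 and a wider interval of -0.38 to 0.23 (limma adjusted p = 0.784).

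The glycosylases of base excision repair had few reads and no call. Mutyh, which removes adenine paired with oxidized guanine, had 143, 162 and 179 normalized counts in Ccdc117ko, against 154, 139.9 and 138 in WT. The 2 highest libraries were Ccdc117ko, but the lowest Ccdc117ko library lay below the highest WT library. The log2 change was 0.16 with a 95% interval of -0.11 to 0.43 (limma adjusted p = 0.481). Nthl1, which removes oxidized pyrimidines, had 63.0, 65.04 and 81.6 in Ccdc117ko, against 70.5, 87.9 and 70.8 in WT. Its log2 change was -0.13 with an interval of -0.52 to 0.26 (limma adjusted p = 0.705). Nthl1 rested on 63 to 98 reads per library, where counting error alone is 11.6% of the value, against 3.42% for Ddx11.

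**Figure D2:**
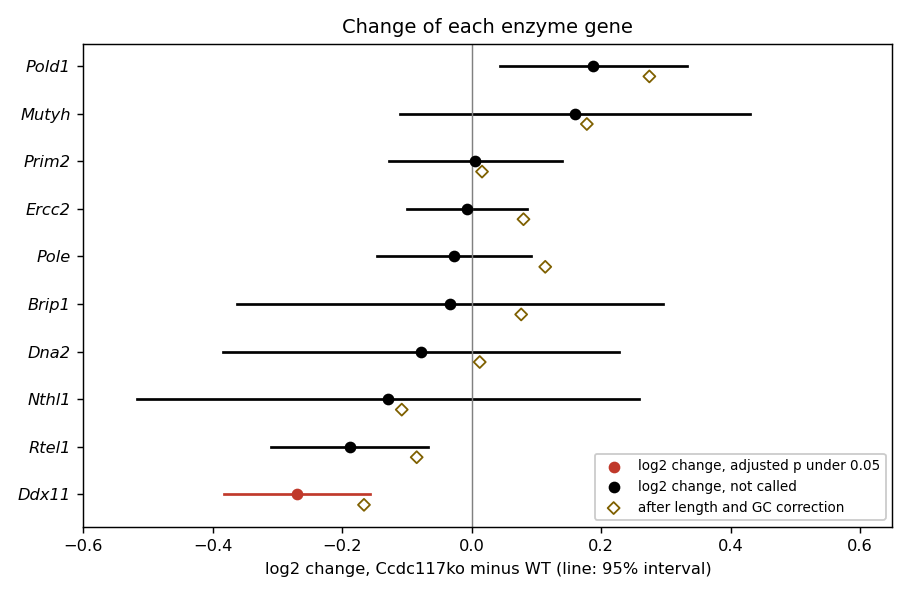
Log2 change of each gene, Ccdc117ko minus WT, on the horizontal axis, with its 95% interval as a line (red for an adjusted p under 0.05) and the value after the length and GC correction as an open diamond. Ddx11 at -0.27 is the only red line; the diamonds of Ddx11 and Rtel1 lie nearer to 0 and that of Pold1 farther from it, at 0.27.

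In mm10, Pole (ENSMUSG00000007080) occupies chromosome 5 at 110286306 to 110337474 (plus strand), Prim2 (ENSMUSG00000026134) chromosome 1 at 33453810 to 33669795 (minus strand) and Dna2 (ENSMUSG00000036875) chromosome 10 at 62947026 to 62974185 (plus strand). Ercc2 (ENSMUSG00000030400) occupies chromosome 7 at 19382010 to 19395694 (plus strand) and Brip1 (ENSMUSG00000034329) chromosome 11 at 86058138 to 86201193 (minus strand). Nthl1 (ENSMUSG00000041429) occupies chromosome 17 at 24632680 to 24638837 (plus strand) and Mutyh (ENSMUSG00000028687) chromosome 4 at 116807723 to 116819440 (plus strand).

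Levels per exon length spanned a range of 22.1-fold among the 10 genes. Ercc2 was the most abundant, at 594 ± 7.95 normalized counts per kilobase of exon in Ccdc117ko and 597 ± 17.95 in WT (SD, n = 3 each). Rtel1 followed at 242 ± 13.5 in Ccdc117ko and 275 ± 6.23 in WT, and Pold1 at 227 ± 0.86 and 199 ± 14.8. Prim2, Pole, Ddx11 and Mutyh came next in that order, each with all 6 libraries above those of the gene after it. Dna2, Brip1 and Nthl1, with means over the 6 libraries of 34.5, 29.7 and 26.9, were the lowest, and neighbours among these 3 overlapped. The ranges of Rtel1 and Pold1 also overlapped, as did those of Pold1 and Prim2: Rtel1 exceeded Pold1 in 5 of 6 libraries, and Pold1 exceeded Prim2 in 5 of 6. Exon length here is the union of all annotated exons, so levels of genes with many rare isoforms are understated. The order depends on this choice. Prim2 has 5938 exon bases but a longest transcript of 2447, against 6616 and 4448 for Rtel1. An order by transcript length was not tested.

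**Figure D3:**
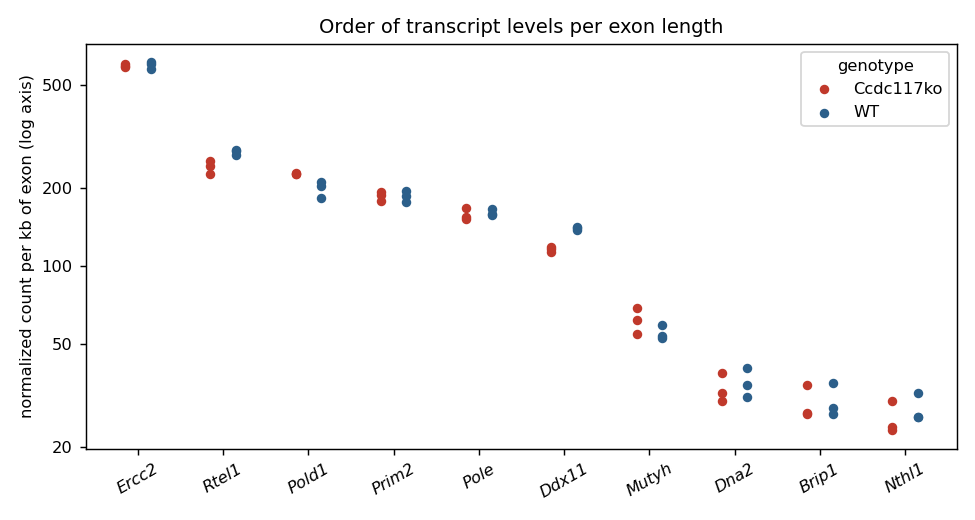
Normalized count per kilobase of annotated exon for each gene and library, on a log axis, with Ccdc117ko (red) left of WT (blue) and genes in falling order of their mean. Ercc2 stands apart at the top, and Dna2, Brip1 and Nthl1 overlap at the bottom.

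The balance of 5 of the enzymes with the partner subunits of their complexes was compared as a log2 ratio within each library, which does not depend on library scaling. Relative to Pold2, Pold3 and Pold4, Pold1 had log2 ratios of 0.01, 0.05 and 0.12 in Ccdc117ko, against 0.19, -0.09 and -0.11 in WT. The groups overlapped, and the difference was 0.06 (exact two-sided permutation p = 0.6, adjusted 0.75 over 5 ratios). Prim2 against Prim1 gave means of 1.86 ± 0.142 in Ccdc117ko and 1.99 ± 0.0954 in WT (SD, n = 3 each), with a difference of -0.12 (exact permutation p = 0.4, adjusted 0.75). The differences for Pole, Ercc2 and Brip1 were -0.01, -0.01 and 0.05 (exact permutation p = 0.8, 0.6 and 0.6; adjusted 0.8, 0.75 and 0.75). Counts of the partners Pold4 and Pole2 are less certain, as they share 27.7% and 11.8% of their 50-base words with 1 other gene each. With 3 libraries against 3 the smallest p this test allows is 0.1, so none could have passed.

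Genes that act with these enzymes, and related genes, none of them among the 10, were read from 10 lists and are called partner genes here. In 1 list are 12 other cytosolic or nuclear iron-sulfur proteins, such as Aco1 and Tyw1, which need not act with the enzymes. Of 130 genes tested, 5 rose, 7 fell and 118 were not called, 9.23% called beside 6.80% of all genes, with a median log2 change of -0.07. The 6.80% includes genes of very low level. With a mean of at least 10, 16.6% of 22878 genes were called, and the partner share at that filter is not given here. Without any 1 library other than WT replicate 1, all 12 calls were lost, and 7 of them remained without WT replicate 1. Over all genes tested, the former fits called 6 to 22 and the latter 1268, against 2228 with all libraries. After the length and GC correction 5 of the 12 were called, namely Rfc4, Rfc3, Acd, Ogg1 and Ndor1, and with that correction and the filter at a mean of 10, added after the data were seen, 10 were, without Pcna and Tyw1. Upper-quartile scaling kept 10, without Gtf2h1 and Tyw1. Without the variance trend 0 were called, where 103 of all genes tested were. With the filter at a mean of 10, 9 to 12 of the 12 were called whichever library was left out. The directions of all 12 held in every alternative.

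Among the clamp and its loader, which hold polymerases delta and epsilon on DNA, Rfc4, Rfc3 and Pcna rose. Rfc4 had 1453, 1575 and 1440 normalized counts in Ccdc117ko, against 1164, 1104 and 1194 in WT, with every Ccdc117ko library above every WT library (log2 change 0.37, limma adjusted p = 0.0169). Rfc3 rose by 0.38 (limma adjusted p = 0.0294) and Pcna by 0.18 (0.0335). Pcna shares 31.8% of its 50-base words with 1 other gene, and a neighbour on the opposite strand, Eif4a2, overlaps 12.7% of Rfc4 exons, so their counts are less certain. Of the 17 genes of the replicative helicase, clamp and clamp loader, 3 rose, none fell and 14 were not called (median log2 change 0.05). None of the 9 partner subunits of the replicative polymerases was called; Pold3 had a log2 change of 0.13 (limma adjusted p = 0.0652) and Pole3 of 0.10 (0.169). None of 12 flap processing and end resection genes was called, with 11 below 0 and a median of -0.14. Over all genes tested 49.8% lay below 0, and the shared direction of the list was not tested. Rpa1, a single-stranded DNA binding subunit, had -0.21 (limma adjusted p = 0.129), and Fen1, the flap nuclease, had 0.05 (0.559), with an antisense gene, Gm10143, over 78.8% of its exonic bases.

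Of the partners of the helicases, few were called. Esco1, an acetyltransferase that establishes cohesion, fell by 0.26 on the log2 scale and was the only called gene of 11 in the cohesion list (limma adjusted p = 0.0247, median of the list -0.10). It had 791, 818 and 821 normalized counts in Ccdc117ko, against 951, 978 and 977 in WT, and it shares 10.02% of its 50-base words with 1 other gene. Gtf2h1, a core subunit of TFIIH beside Ercc2, fell by 0.23 (limma adjusted p = 0.0453), and the other 15 of 16 TFIIH and excision repair genes were not called (median -0.03). Slx4, a scaffold for nucleases in crosslink repair, fell by 0.31 (limma adjusted p = 0.0396), and the other 17 of 18 BRCA1 and Fanconi genes were not called. The median of the 18 was -0.14, with 14 below 0, beside 49.8% of all genes tested. Acd, a subunit of the telomere-binding shelterin complex, rose by 0.24 (limma adjusted p = 0.0267), and the other 8 telomere genes were not called (median -0.07). A gene on the opposite strand, Carmil2, overlaps 33.3% of the exonic bases of Acd.

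Of 17 base excision repair genes without a cluster, 1 rose, 1 fell and 15 were not called (median log2 change 0.06), beside 6.80% of all genes called. Ogg1, the glycosylase that removes the oxidized guanine opposite cytosine, had 891, 985 and 1018 normalized counts in Ccdc117ko, against 729, 737 and 641 in WT. All Ccdc117ko values lay above all WT values (log2 change 0.46, limma adjusted p = 0.0201). A gene on the opposite strand, Camk1, overlaps 10.6% of Ogg1 exons. Parp1, which senses strand breaks, fell by 0.28 (limma adjusted p = 0.0353), a call lost after the length and GC correction (limma adjusted p = 0.0729).

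Of the other iron-sulfur genes, those called were lower. Aco1, a cytosolic aconitase that also binds iron-responsive RNA, fell by 0.39 (limma adjusted p = 0.0384), and Tyw1, a tRNA-modifying enzyme, fell by 0.30 (0.0466), with 10 of 12 other cytosolic or nuclear cluster proteins not called (median -0.08). Of 9 cytosolic assembly and targeting factors 1 was called: Ndor1, an electron donor of cluster assembly, at 540 ± 3.95 normalized counts in Ccdc117ko and 742 ± 58.0 in WT (SD, n = 3 each; limma adjusted p = 0.0169). The table holds 3 overlapping genes under that symbol, and their summed counts overlapped between genotypes, at 944 ± 39.8 in Ccdc117ko and 1018 ± 81.1 in WT, so the fall of Ndor1 is uncertain.

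**Figure D4:**
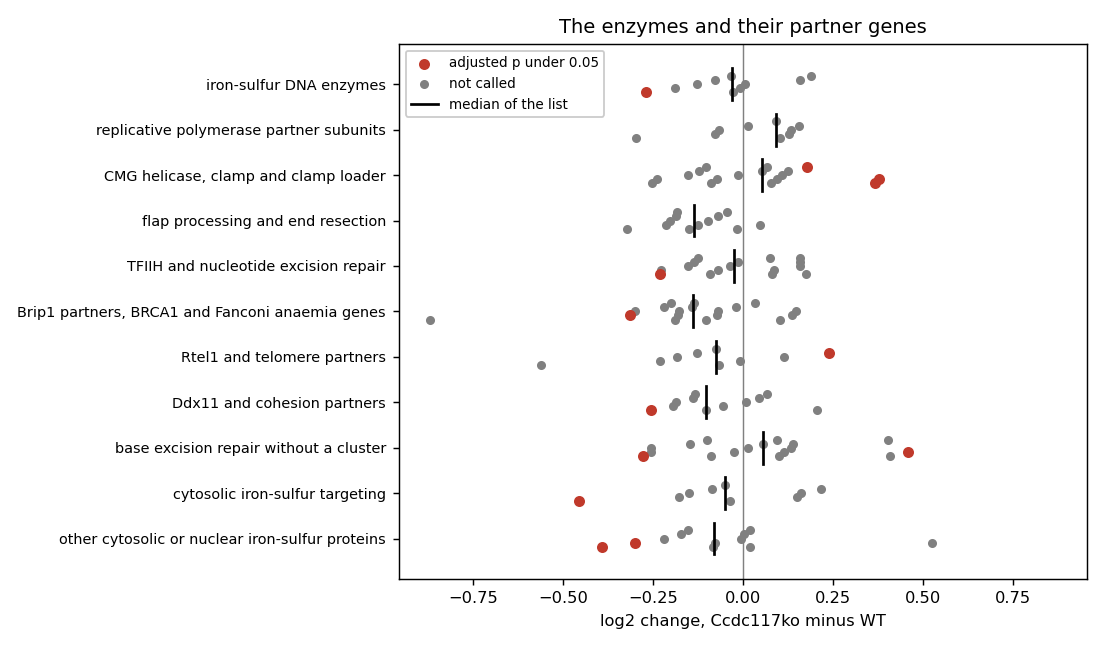
Log2 change, Ccdc117ko minus WT, of every tested gene in the iron-sulfur enzyme list and in 10 lists of partner genes (1 point a gene, red for an adjusted p under 0.05, black line for the median of the list). List medians lie between -0.14 and 0.09, and called genes are few and lie on both sides of 0.

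Markers of the cell types of the testis are given beside the values of Ddx11, Rtel1 and Pold1. Over all genes 3.10% were called lower and 3.70% higher, and 49.8% lay below 0. The lists differed, with every round spermatid marker and no endothelial marker called. In bulk tissue, fewer cells of a type and less RNA per cell cannot be told apart. The summed level of 10 spermatogonial markers was 5251 to 5430.5 normalized counts in Ccdc117ko, against 5925 to 6360.5 in WT, with 1 called lower and 9 of 10 below 0. That of 10 meiotic prophase markers was 25558 to 26688, against 27670 to 27969, with 2 called lower. The 10 round spermatid markers were all called higher, and of the 10 Sertoli markers 6 were called lower. The summed level of 7 macrophage markers was 2806 to 3020.1 in Ccdc117ko, against 3297 to 3684 in WT, with 2 called lower, and that of 7 endothelial markers was 1961 to 2201 against 2213 to 2435, with none called. Elongating spermatid sums overlapped, at 709518 to 749096 in Ccdc117ko and 680447 to 734057 in WT, with 2 of 10 called higher. The sum of 10 Leydig markers was 82037 to 95289 in Ccdc117ko, against 70353 to 81026 in WT, with 4 called higher, 2 called lower and 4 of 10 below 0. Insl3, which was not called, made up most of that sum, at 57057 ± 5261 in Ccdc117ko and 48328 ± 3955 in WT (SD, n = 3 each). The sum of 8 pachytene markers was 229052 to 233022 in Ccdc117ko, against 212406 to 228338 in WT, but 4 of the 8 lay below 0 (median log2 change -0.02; 2 called higher, 1 lower), and Ldhc made up most of the sum. The sum of 6 peritubular markers was 14860 to 15535 in Ccdc117ko, against 13665 to 14389 in WT, while 5 of the 6 lay below 0 (median -0.06; 1 called higher, 1 lower). Actg2 made up most of that sum, at 10983 ± 95.2 in Ccdc117ko and 9588 ± 331 in WT (SD, n = 3 each). No marker was at 0 in any library. Of the most abundant markers of each list, limma called Tssk1 (log2 change 0.23), Acr (0.20), Cyp17a1 (0.47) and Actg2 (0.20) higher and Cldn11 (-0.20), Mrc1 (-0.28) and Fcgr3 (-0.35) lower. It did not call Uchl1 (-0.13), Dmrt1 (-0.09), Sycp2 (-0.12), Sycp1 (-0.13), Ldhc (0.11), Adam3 (-0.10), Prm2 (0.07), Tnp2 (0.10), Clu (-0.12), Insl3 (0.24), Acta2 (-0.05), Sox17 (-0.32) or Vwf (-0.02). The part of cell make-up in the changes of the iron-sulfur enzyme genes was not tested.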

How the data were processed

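RNA from testes was extracted with TRIzol and sequenced from a stranded mRNA kit, per the labels' protocols. STAR, DESeq2 and the build mm10 are named, without roles or versions, per the submitters' processing notes. How reads were counted, and whether by strand, is not given in the sources used here. In 1 table the authors deposited a log2 value per library, read here as log2(normalized count + 1) from the values: after undoing the log2, all values under 500 reads were whole multiples of 1 step within 0.01. The authors also deposited a p-value and an FDR whose test the file headers do not name; these appear only where credited to them. No count test was run on the recovered reads. As the deposited values are on a log2 scale, limma 3.58.1 (R 4.3.3) with a variance trend was fitted to them as deposited. This fit had genotype as the only term and covered 32783 genes with a mean of at least 0.5. Its two-sided p-values were adjusted by Benjamini-Hochberg over every gene in the fit (threshold 0.05). Changes are differences of log2(normalized count + 1), so the addition of 1 understates them in low genes. GENCODE M21 on mm10 gave coordinates, exon lengths and, for the longest transcript, length and GC content (36551 of 36652 genes matched). For the length and GC correction, natural splines of both (knots at the 25, 50 and 75 percentiles) were fitted, per library, to its differences from the mean of each gene, and removed. The steps were tested on simulated data. No libraries were duplicates: chi-square per degree of freedom was 4.43 to 7.00 between replicates. The intervals given are for log2 changes and were built from the limma standard error. They reflect the spread between libraries, not counting error alone.

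The enzymes and the lists of partner and marker genes were chosen with earlier results of these data known. Named are the 10 enzymes, Ccdc117, of each partner list up to 4 called genes or else the 2 most abundant, the 2 most abundant genes of each marker list, the 2 genes nearest in pattern to each called enzyme, and genes whose exons overlap a named gene, which were chosen after the overlap was seen. Alternatives covered the filter, scaling, pseudocount, variance trend, library weights, replicate block, length and GC correction and each library left out in turn.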

Additional observations from a re-analysis of the deposited data

How the results depend on the processing

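The count of genes called over the transcriptome was 2228 (1212 higher, 1016 lower), and it was 3798 (1911 higher, 1887 lower) with a mean of at least 10, and 103 (47 higher, 56 lower) without the variance trend. The length and GC correction gave 1874 (1442 higher, 432 lower), and with a mean of at least 10 it gave 2793 (1875 higher, 918 lower). Leaving out 1 library gave 6 to 1268 calls (2 to 789 higher, 4 to 479 lower), and with a mean of at least 10, added after the data were seen, 1714 to 4021 (936 to 2041 higher, 778 to 1980 lower). Of the 10 enzymes, 2 were called lower with a mean of at least 10 (Ddx11 and Rtel1) and 0 without the variance trend or after the length and GC correction, which called 1 higher (Pold1) with either filter. Leaving out 1 library gave 0 to 1 called lower and 0 higher, and with a mean of at least 10, 0 to 2 lower and 0 to 1 higher.

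Same-numbered libraries did not deviate together (correlations of -0.08, -0.05 and 0.04). The labels do not say whether they share an origin, and these correlations cannot exclude it. With the replicate block, 703 genes were called (364 higher, 339 lower) and 0 enzymes (Ddx11, limma adjusted p = 0.0638), and of the 12 called partner genes 3 were (Rfc3, Parp1 and Ndor1). With the block and the length and GC correction 26 were called (13 higher, 13 lower), with 0 enzymes and 0 of the 12 partner genes.

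Ddx11, Rtel1, Pold1, Nthl1 and Mutyh kept their direction in every alternative. The others turned near 0; the cause was not tested. After the length and GC correction, with or without the block, the log2 change was 0.11 for Pole, 0.012 for Dna2, 0.080 for Ercc2 and 0.076 for Brip1. With the same correction and a mean of at least 10 it was 0.12 for Pole, -0.011 for Prim2, 0.016 for Dna2, 0.079 for Ercc2 and 0.069 for Brip1. Ercc2 was 0.010 under upper-quartile scaling, and Brip1 0.013 with array weights. Leaving out 1 library, under either filter, gave -0.070 to 0.0017 for Pole, -0.031 to 0.040 for Prim2 (-0.023 without Ccdc117ko replicate 1), -0.18 to 0.018 for Dna2, -0.032 to 0.010 for Ercc2 (0.00046 without Ccdc117ko replicate 2) and -0.15 to 0.085 for Brip1 (0.031 and 0.022 without Ccdc117ko replicates 1 and 3). The ratio to partners was 0.038 for Pole with the median of the partners, and 0.14 for Pole and 0.064 for Ercc2 after the length and GC correction. Without 1 library it was -0.047 to 0.027 for Pole, -0.033 to 0.0011 for Ercc2 and -0.082 to 0.19 for Brip1.

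Counting error was largest for Nthl1, Mutyh, Dna2 and Brip1, at 6.71% to 11.6% of the value. For Nthl1, Dna2 and Brip1 the SD between replicates, as a share of the mean, exceeded the counting error in both genotypes. For Mutyh it did so in Ccdc117ko but not in WT. The part of depth in the spread of these genes was not tested.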
